A study of Mus musculus with 4 samples.

Results

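Pou5f1, Sox2, Sall4, Rif1, Utf1, L1td1, Lin28a and Trim28 are 8 genes of the pluripotency machinery that naive and primed cells have in common. Pcbp1, a poly-C-binding protein of the KH-domain family, was profiled around them by chromatin immunoprecipitation sequencing (ChIP-seq), which locates stretches of chromatin recovered with an antibody. The members were set by a named list of genes and by distance. A peak belonged to a gene when its summit, the position of highest coverage, lay within 50 kb of the gene body. By this rule 28 of the 12132 peaks of naive cells and 9 of the 3494 peaks of primed cells belonged to the 8 genes, out of 21887 protein-coding genes in the annotation. All 8 genes were found in it.

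Both states came from the mouse embryonic stem cell line E14 Tg2a (Bay Genomics). Naive cells had been adapted over 3 passages to 2i-LIF-N2B27, a medium without serum in which PD0325901 (1 uM) blocks MEK and CHIR99021 (3 uM) blocks GSK3β. Primed epiblast-like cells (EpiLC) were made from such cells on fibronectin in N2B27 with 12 ng/ml bFGF, 20 ng/ml Activin A and KOSR over 48 hours. For each state there was a single immunoprecipitation with an antibody against Pcbp1 (Abcam, ab74793) and a single input without antibody, and the deposited data are 1 peak list per state. No culture was repeated, so no value carries replicate error and no test between the states was possible. All intervals are 95% Poisson or exact binomial intervals that cover counting error only. The peak lists do not measure gene expression. Known markers of each state were looked at beside the labels. A peak lay within 1 kb of a gene end for 19.3% (Naive) and 5.61% (EpiLC) of all protein-coding genes. Such a peak was found at 4 of 5 naive markers (Nanog, Klf4, Zfp42 and Tfcp2l1, not Esrrb) in Naive and at 0 in EpiLC. For 5 primed markers the numbers were 0 in Naive and 4 in EpiLC (Fgf5, Pou3f1, Dnmt3b and Sall2, not Otx2), and for 4 genes of other lineages 0 and 1 (Gata6). Within 50 kb, Otx2 had 5 Naive peaks and 1 EpiLC peak, Pou3f1 2 and 2, Dnmt3b 1 and 1, Sall2 1 and 2 and Fgf5 0 and 5. The naive markers had 7 and 0 (Nanog), 3 and 0 (Klf4), 8 and 0 (Esrrb), 4 and 0 (Zfp42) and 7 and 0 (Tfcp2l1). Of the other lineages, Gata6 had 0 and 1, Sox17 0 and 0, and Cdx2 and Col1a1 2 and 0 each. Over all protein-coding genes, 58.1% had a Naive and 26.3% an EpiLC peak within 50 kb.

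Pou5f1 encodes Oct4, a POU-domain transcription factor, and Sox2 encodes an HMG-box factor. They bind DNA side by side at enhancers of pluripotency genes, their own included. Oct4 transcription is known to pass from a distal to a proximal enhancer, both upstream of the gene, as naive cells become primed. Sall4 and Utf1 encode chromatin-bound partners of this network, Rif1 and Trim28 act in heterochromatin and gene silencing, and L1td1 and Lin28a encode RNA-binding proteins of pluripotent cells.

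The sequences closest to the peaks present in both states are shown first. They are the 250 bases before a transcript start in the RefSeq promoter table (GRCm38.p6, the same build as the peaks), which held 6 of the 8 genes. Pou5f1, Sox2 and L1td1 are shown because in each of them a Naive and an EpiLC peak overlapped within 1 kb of the start. Gm14261 is a long noncoding RNA gene with its start inside the Sall4 gene, and its window is shown because it lay in the Sall4 peaks themselves. Each is written 5′ to 3′ on the plus strand, and capitals mark runs of at least 5 C or 5 G, that is C on the strand shown or on the other.
Pou5f1, chr17:35505782-35506031: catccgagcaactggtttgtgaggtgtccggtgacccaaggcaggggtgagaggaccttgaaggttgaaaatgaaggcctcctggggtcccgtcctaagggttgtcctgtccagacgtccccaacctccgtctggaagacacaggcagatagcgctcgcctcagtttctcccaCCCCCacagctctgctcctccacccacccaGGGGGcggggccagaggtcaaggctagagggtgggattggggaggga
Sox2, chr3:34649745-34649994: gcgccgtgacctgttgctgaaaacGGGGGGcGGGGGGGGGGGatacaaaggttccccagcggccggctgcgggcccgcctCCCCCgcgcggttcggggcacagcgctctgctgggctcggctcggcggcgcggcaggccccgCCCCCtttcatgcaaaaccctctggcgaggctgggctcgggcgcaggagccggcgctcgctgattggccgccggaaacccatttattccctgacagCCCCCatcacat
L1td1, chr4:98726504-98726753: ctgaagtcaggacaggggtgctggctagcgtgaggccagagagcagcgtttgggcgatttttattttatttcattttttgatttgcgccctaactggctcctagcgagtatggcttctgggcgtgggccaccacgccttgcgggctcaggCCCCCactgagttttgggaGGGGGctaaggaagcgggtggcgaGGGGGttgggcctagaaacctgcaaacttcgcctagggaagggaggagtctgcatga
Gm14261 in Sall4, chr2:168765893-168766142: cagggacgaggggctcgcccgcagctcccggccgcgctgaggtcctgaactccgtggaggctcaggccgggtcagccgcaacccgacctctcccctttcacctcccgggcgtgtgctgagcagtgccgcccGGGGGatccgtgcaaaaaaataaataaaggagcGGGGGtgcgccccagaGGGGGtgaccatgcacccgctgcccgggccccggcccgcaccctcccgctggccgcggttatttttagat
The Gm14261 window lay wholly in the EpiLC peak of Sall4, with 250 of its bases covered, and 127 of them were also in a Naive peak. The other printed windows held no base of any peak. Peaks of Pou5f1 and Sox2 lay on both sides of these windows, and those of L1td1 on the gene side. Runs marked in capitals numbered 2 in Pou5f1, 5 in Sox2 (the longest of 11 bases), 3 in L1td1 and 3 in Gm14261. CCCCC was searched on both strands, and 47.2% of the 32851 windows of this length in the table held it. Of the 7 windows that the table gave for the 6 genes, 6 held it. Also searched were ATGCAAAT and CCCTCCC, held by 1.60% and 19.7% of all windows. ATGCAAAT was in none of the 7 windows, nor in that of Gm14261. CCCTCCC was in 1 window of Pou5f1 and in those of L1td1, Utf1, Lin28a and Gm14261, but not of Sox2 or Trim28. The share of G and C was 62.0% for Pou5f1, 72.0% for Sox2, 57.6% for L1td1 and 69.2% for Gm14261, against a median of 52.4% over all windows. A match is a description of these letters and does not mark a binding site.

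Naive peaks were many around Pou5f1, Sox2, Trim28 and Sall4 and few around the other members, and EpiLC peaks were fewer but present at 6 of 8 genes. In Naive, 7 of 8 genes had a peak within 50 kb, against 58.1% of all protein-coding genes, and in EpiLC 6 of 8, against 26.3%. Pou5f1 had 7 Naive peaks, Sox2 and Trim28 had 6 each and Sall4 had 5, so that 4 of 8 genes had at least 5, against 6.37% of all genes. L1td1 had 2, Rif1 and Utf1 had 1 each and Lin28a had 0. In EpiLC, Sox2 had 3 peaks, Utf1 had 2, Pou5f1, Sall4, L1td1 and Lin28a had 1 each, and Rif1 and Trim28 had 0. At least 2 EpiLC peaks were thus found at 2 of 8 genes, against 7.46% of all genes. The median number over the 8 genes was 3.5 for Naive and 1 for EpiLC, beside 1 and 0 over all protein-coding genes. The genes were chosen with results of these lists known, so these counts describe the 8 genes and are no test. The lists also differ in length: with the Naive list cut to its 3494 peaks of lowest p, 10 Naive peaks remained at the 8 genes beside the 9 of EpiLC.

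**Figure D1:**
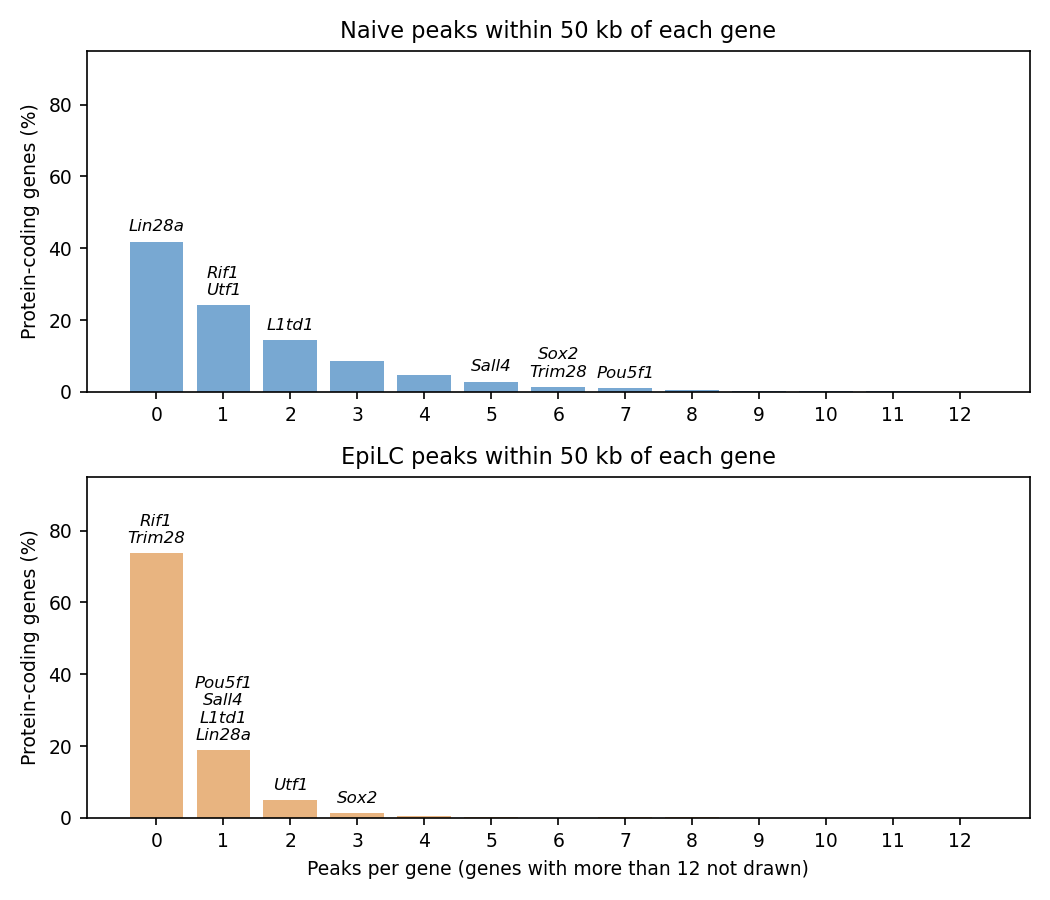
Bars give the percent of protein-coding genes with each number of peaks within 50 kb in the Naive list (upper panel) and the EpiLC list (lower panel), and gene names stand over the number found at each of the 8 genes. Pou5f1, Sox2, Trim28 and Sall4 stand at 5 to 7 Naive peaks, where bars are low, and Lin28a stands at 0.

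A gene-end peak, with its summit within 1 kb of either annotated end, was present at 6 of 8 genes in Naive, against 19.3% of all genes, and at 4 of 8 in EpiLC, against 5.61%. Pou5f1, Sox2, Utf1 and L1td1 had one in both lists, against 4.09% of all genes, while Sall4 and Rif1 had one in Naive. At Utf1 the Naive and EpiLC peaks were at different places and did not overlap. Lin28a and Trim28 had none in either. Within 500 bp of a gene end the counts were 3 genes in Naive and 2 in EpiLC, and at a fold of at least 5 they were 2 and 0. Within 3000 bp they were equal, at 6 and 6, as EpiLC peaks of Sall4 (1632 bp) and Lin28a (2193 bp) then counted. The order of the lists turned with the shortened Naive list, at 2 and 4. With transcript starts only the counts were 3 in Naive and 4 in EpiLC, but starts were given for 6 of the 8 genes. The missing genes were Sall4 and Rif1, those with a gene-end peak in Naive alone, so this count cannot show a turn over the 8 genes. Utf1 also left the Naive count, because its Naive peak lay by the 3′ end, 1829 bp from the start. Many of the other peaks lay nearer to a neighbour: of the 28 Naive peaks, 10 had a member's end as the nearest gene end (35.7%, exact binomial interval 18.6 to 55.9), and of the 9 EpiLC peaks 5 had one (55.6%, 21.2 to 86.3). The peaks farthest from a gene that still fell inside the 50 kb were those at 48.0 kb from L1td1 (fold 3.62), 45.3 kb from Trim28 (3.30) and 44.4 kb from Pou5f1 (3.42), all Naive. The nearest outside lay 73.0 and 74.5 kb from Sall4 (4.40 and 4.15) and 74.9 kb from Trim28 (4.41), also Naive.

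**Figure D2:**
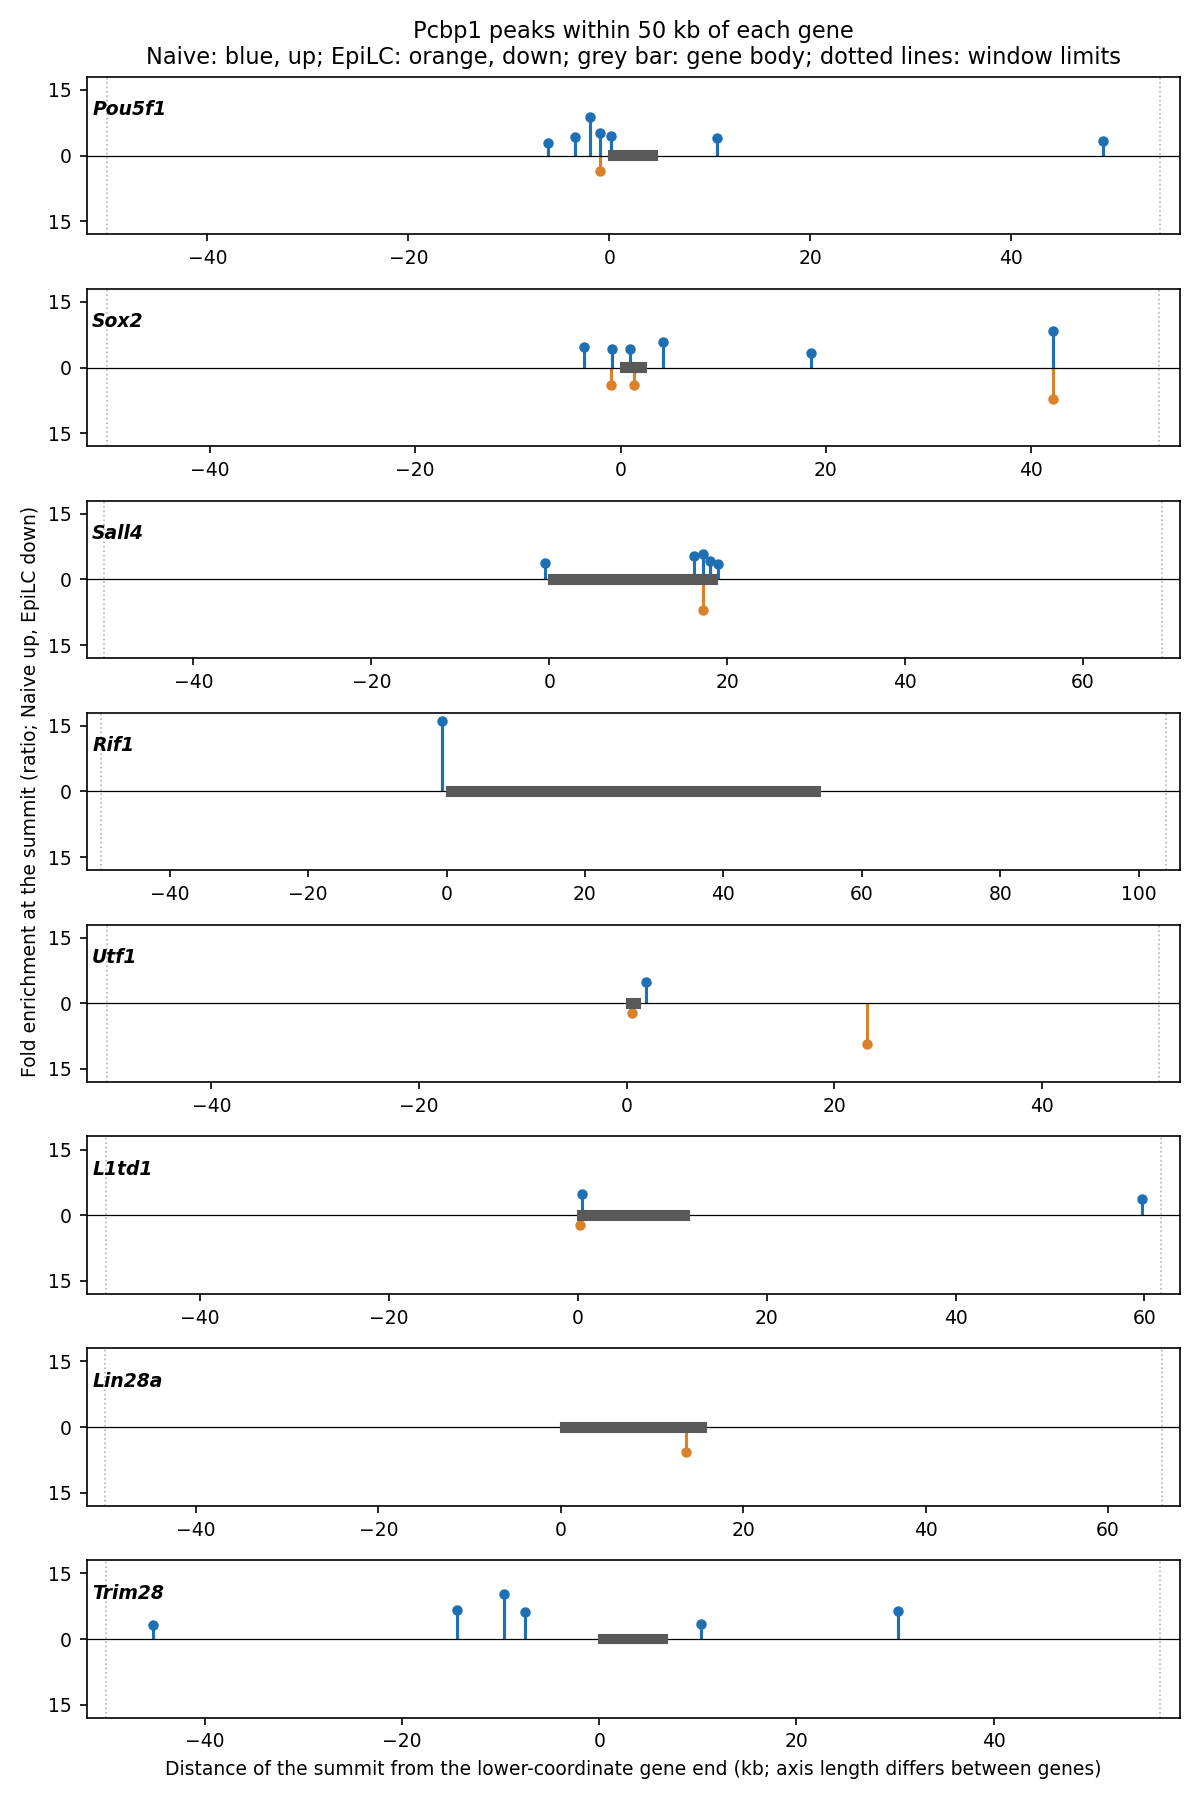
Each panel plots the peaks of 1 gene by the distance of their summits from the lower-coordinate gene end in kb, with the fold enrichment as the height, Naive upwards and EpiLC downwards, and dotted lines at the limits of the 50 kb windows. Naive peaks gather just before Pou5f1, around Sox2 and at the upper end of Sall4, Rif1 has a single Naive peak of 16.0 and Lin28a a single EpiLC peak of 5.73.

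The fold enrichment is the authors' value, the coverage at the summit over the caller's background there. The 28 Naive peaks ranged from 2.91 to 16.0 with a median of 4.62, beside 4.43 over the whole list, and 15 of them were above that list median. The 9 EpiLC peaks ranged from 2.21 to 9.35 with a median of 3.95, beside 3.41 over the list, and 7 were above it. In each list 4 of these peaks were in the top 10% by fold. Median widths were 396 bp in Naive and 399 bp in EpiLC, beside 362 and 308 bp over the lists. The EpiLC library gave the deeper coverage, with a genome-wide background of 7.43 against 4.004 in Naive, and its median summit pileup at these genes was 50 against 26.5. The local background was higher in EpiLC as well, at a median of 1.65 times the genome-wide value against 1.17 in Naive. Where the background was within 2% of the genome-wide value, the lowest fold called was 2.99 in Naive and 2.85 in EpiLC.

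Of the 28 Naive peaks, 6 overlapped an EpiLC peak (21.4%, exact binomial interval 8.30 to 41.0), and the share over the whole Naive list was 13.7%. Of the 9 EpiLC peaks, 5 overlapped a Naive peak (55.6%, 21.2 to 86.3), against 48.3% of the EpiLC list. Both intervals include the share of the whole list, but they treat the peaks as independent. At Sall4, 2 of the 6 Naive peaks overlapped the same EpiLC peak. This left 22 Naive peaks and 4 EpiLC peaks at the 8 genes without a counterpart. A peak missing from a list may lie just below the threshold. Over all 1689 overlapping pairs the Naive fold was a median 1.49 times the EpiLC fold. A Naive peak of 4.25 would at that ratio stand at 2.85, the lowest EpiLC fold called near the genome-wide background. Of the 22 peaks in Naive alone, 10 were below 4.25 and 12 above it. Only 305 of the 3494 EpiLC peaks had such a background. At higher backgrounds lower folds were called, down to 2.21 at these genes. The split therefore does not tell which of the 22 could have been called in EpiLC.

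At Pou5f1 (chromosome 17, 35506032 to 35510777, plus strand), Naive peaks lined the region upstream of the start and EpiLC had a single peak there. The highest Naive peak (35503676 to 35504294) had its summit 1937 bp upstream, with a pileup of 61 and a fold of 8.82 (6.78 to 11.3), and 3.92% of Naive peaks were higher. No EpiLC peak overlapped it. The next Naive peak (35504896 to 35505337), 924 bp upstream, had a fold of 5.12 (3.53 to 7.20) from a pileup of 31. It was the one found in both lists: the EpiLC peak (35504771 to 35505390) had its summit 894 bp upstream, 30 bp away, with a fold of 3.42 (2.55 to 4.48) from a pileup of 50. In Naive the order was thus the farther peak above the nearer one, with intervals that overlapped, and in EpiLC the nearer one alone was called. The coordinates of the distal and proximal enhancers are not in the tables used here, and neither peak was assigned to one.

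Other Naive peaks of Pou5f1 were weaker and had no EpiLC counterpart. One lay 138 bp inside the gene (4.48, 3.16 to 6.19), where the local background was 1.76 times the genome-wide value. Those 3412 bp and 6140 bp upstream had folds of 4.24 and 2.91. All the upstream peaks but the farthest lay in the body of Gm32362, a long noncoding RNA gene on the minus strand that starts just before Pou5f1 and runs away from it. The remaining pair stood at neighbours, inside Tcf19, 116 bp from its transcript start (3.94), and inside Cdsn (3.42).

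Sox2 (chromosome 3, 34649995 to 34652461, plus strand) lies inside the long noncoding RNA gene Sox2ot and had peaks on both sides in both lists. Of its 6 Naive peaks, the 4 nearest had summits 3580 bp upstream (4.76, 3.15 to 6.94), 798 bp upstream (4.19, 2.63 to 6.36), 946 bp inside the gene (4.32, 2.85 to 6.30) and 4098 bp after the start (5.92, 4.06 to 8.37). The last of these was 867 bp wide. Known Sox2 enhancers lie on both sides of the gene, but their coordinates were not used here. In EpiLC a peak 946 bp upstream (3.95, 2.94 to 5.22) overlapped the Naive peak at 798 bp, with summits 148 bp apart. A second EpiLC peak lay 1299 bp inside the gene (3.91, 2.83 to 5.27). It did not overlap the Naive peak in the gene body, which ended at 34651159, before the EpiLC peak began at 34651185. The Naive peaks at 3580 bp upstream and 4098 bp downstream had no counterpart in EpiLC.

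The highest Sox2 peak was the same in both lists and lay far from the gene. It was found 42.1 kb after the Sox2 start, in the long noncoding RNA gene Gm34941 (34691985 to 34692312 in Naive and 34691926 to 34692324 in EpiLC), with summits 13 bp apart. The fold was 8.37 (6.06 to 11.3) in Naive and 7.16 (5.80 to 8.75) in EpiLC, from pileups of 41 and 94, and 4.99% and 3.29% of peaks in the respective lists were higher. The remaining Naive peak, at 18592 bp, had a fold of 3.32.

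**Figure D3:**
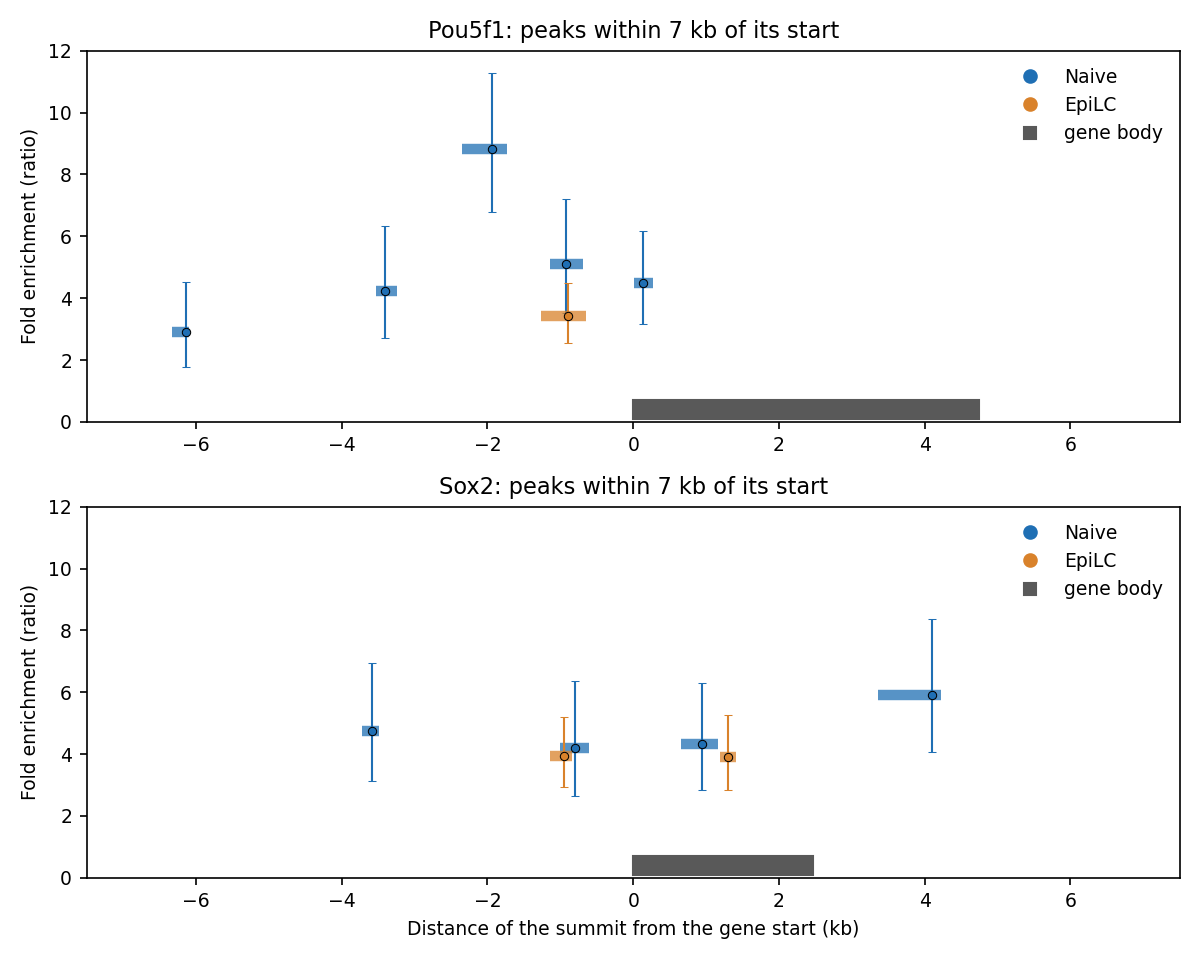
Peaks within 7 kb of the starts of Pou5f1 and Sox2 are drawn as horizontal bars at their fold enrichment, with the summit as a point, its 95% counting interval as a vertical line and the gene body in grey, against the distance from the start in kb. At Pou5f1 the Naive peak 1937 bp upstream is the highest and has no EpiLC peak beside it, while at Sox2 both outer peaks, 3580 bp upstream and 4098 bp after the start, are Naive.

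Sall4, a zinc finger factor that binds Oct4 and recruits the NuRD deacetylase complex, had the one shared peak with the higher fold in EpiLC. The gene spans 168748332 to 168767201 on chromosome 2. The EpiLC peak (168765334 to 168766521) was 1188 bp wide, lay in the gene 1632 bp from its upper end and had a fold of 7.06 (5.76 to 8.57) from a pileup of 100. Of all EpiLC peaks, 3.58% were higher. It overlapped a pair of Naive peaks, one of 799 bp with a fold of 5.73 (3.90 to 8.15) and a pileup of 29 and one of 512 bp with 4.11 (2.85 to 5.75) and a pileup of 32. Summits of the EpiLC peak and the higher Naive peak were 47 bp apart. The interval of the higher Naive peak overlapped that of the EpiLC peak, and the upper bound of the weaker one fell just under the EpiLC lower bound.

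The other Sall4 peaks were Naive and had no counterpart. Another peak inside the gene, 2570 bp from the upper end, had a fold of 5.35 (3.59 to 7.69), one over the upper end itself 3.48 (2.14 to 5.39), and one 464 bp beyond the lower end 3.82 (2.46 to 5.70). Naive peaks thus lay spread towards the upper-coordinate end of the gene and over it, while the EpiLC list had a single block there.

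Utf1, a small chromatin-associated gene product of undifferentiated cells, had peaks in both lists at different places. The gene occupies 139943856 to 139945112 on chromosome 7. The Naive peak lay 573 bp beyond the upper end, which is the 3′ end (139945539 to 139945906; fold 4.83, 3.24 to 6.95; pileup 27). The EpiLC peak lay in the gene, 464 bp from the start (139944311 to 139944676), with a fold of 2.21 (1.59 to 3.00) from a pileup of 39, and 95.05% of EpiLC peaks were higher. Its local background was 2.30 times the genome-wide value. The second EpiLC peak was the highest EpiLC peak at any of the 8 genes: 23.1 kb after the start, inside the long noncoding RNA gene Gm16201 (139966810 to 139967216), it reached 9.35 (7.67 to 11.3) from a pileup of 106, and 1.00% of EpiLC peaks were higher. No Naive peak overlapped it.

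Rif1 had the strongest Naive peak of the 8 genes and none in EpiLC within 50 kb. Rif1 restrains replication timing and takes part in telomere and double-strand break biology, and in stem cells in the silencing of retroelements. The gene spans 52072815 to 52126769 on chromosome 2, and the peak (52071263 to 52072608) was 1346 bp wide with its summit 592 bp beyond the lower end. Its pileup was 79 at the genome-wide background, and the fold of 16.0 (12.7 to 19.9) was exceeded by 0.288% of Naive peaks. The EpiLC coverage and background at this place are not in the peak list, so no EpiLC value can be set beside it.

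Trim28, also known as KAP1, is the corepressor through which KRAB zinc finger proteins silence retroelements. Its 50 kb window on chromosome 7 (gene body 13024152 to 13031032) held 6 Naive peaks and 0 EpiLC peaks, and none of the 6 had a Trim28 end as its nearest gene end. The window also held 8 other protein-coding genes. A Naive peak of 995 bp (13013961 to 13014955) lay between genes, 9666 bp before the Trim28 start and 4439 bp from the upper-coordinate end of Zbtb45, the side of its start, and had a fold of 10.2 (7.62 to 13.4) from a pileup of 50, with 2.27% of Naive peaks higher. Beside it, 7583 bp before Trim28, was a peak of 6.19 (4.24 to 8.76). Peaks near the transcript starts of Zbtb45 (6.58, 4.59 to 9.16), Mzf1 (6.34, 4.45 to 8.79) and Chmp2a (3.48, 2.30 to 5.08) and one in Zfp446 (3.30) made up the rest. Zbtb45, Mzf1 and Zfp446 are zinc finger genes and Chmp2a belongs to the ESCRT-III machinery.

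The RNA-binding genes split. L1td1, which descends from a LINE-1 open reading frame, had a peak near its start in both lists (chromosome 4, gene body 98726754 to 98738486). The Naive peak (98726897 to 98727589) had its summit 483 bp inside the gene and a fold of 4.85 (3.23 to 7.02) from a pileup of 26. The EpiLC peak (98726912 to 98727332) had its summit 181 bp inside and a fold of 2.25 (1.65 to 3.01) from a pileup of 44, where the local background was 2.55 times the genome-wide value. The intervals did not overlap. A second Naive peak lay in the neighbour Kank4 (3.62).

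Lin28a, whose protein blocks maturation of let-7 microRNAs, was the member with a peak in EpiLC and none in Naive within 50 kb, which was so for 3.91% of all protein-coding genes. The peak (chromosome 4, 134016860 to 134017213) lay in the gene, which is on the minus strand, 1813 bp after the start given in the promoter table and 2193 bp from the upper end of the annotated gene. Its fold was 5.73 (4.48 to 7.22) from a pileup of 70, and 7.36% of EpiLC peaks were higher.

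Set side by side, the peaks found in both lists did not share a direction in their folds. Only at L1td1 were the counting intervals apart. At Pou5f1, Sall4 and both Sox2 peaks they overlapped, so no direction is shown there. The Naive fold over the EpiLC fold was 2.15 at L1td1, 1.50 at Pou5f1, 1.17 at the distal Sox2 peak, 1.06 at the Sox2 peak upstream and 0.812 at Sall4. Over all 1689 pairs the median was 1.49 (quartiles 1.15 and 1.91), and 14.4% had the higher fold in EpiLC. The Sall4 ratio was in the lowest part of the range, with 5.21% of pairs below it, and 84.1% of pairs were below the L1td1 ratio. With the pileup over the genome-wide background of each list in place of the fold, the ratios were 1.10 at L1td1, 1.15 at Pou5f1, 0.810 and 0.773 at the Sox2 peaks and 0.538 at Sall4, with a median of 1.10 over all pairs. Both Sox2 peaks thus changed direction with the scale, while Pou5f1, L1td1 and Sall4 did not. The L1td1 ratio fell from 2.15 to 1.10, the median of all pairs, and Pou5f1 at 1.15 was close to it. A Naive excess at L1td1 was therefore not kept on this scale.

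**Figure D4:**
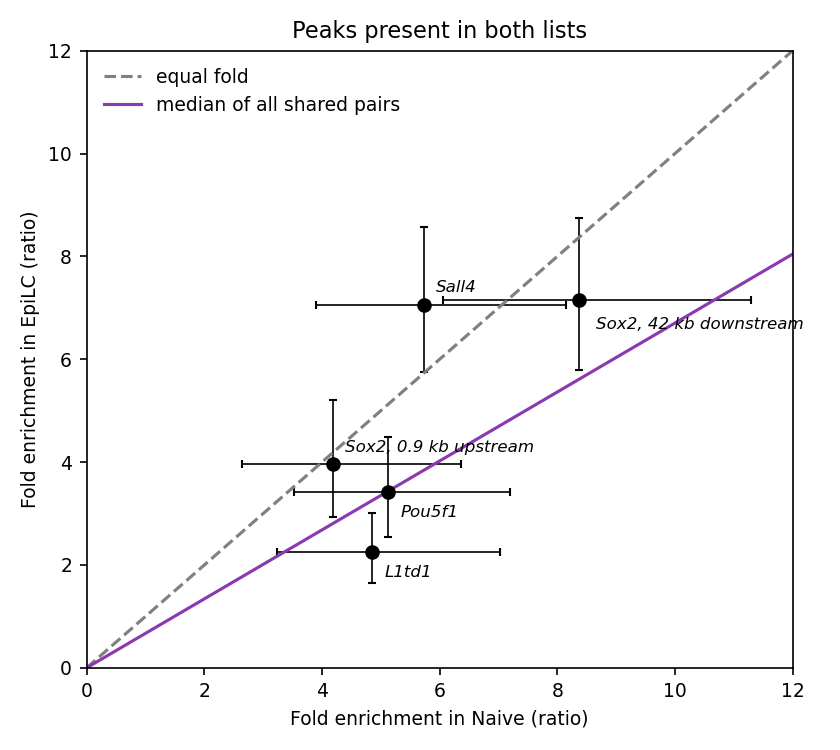
Points give the Naive fold (x axis) and the EpiLC fold (y axis) of the 5 pairs of overlapping peaks with 95% counting intervals, the dashed line marks equal folds and the solid line the median ratio of all 1689 pairs. Sall4 lies above the dashed line, and Pou5f1 lies close to the solid line.

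Genes that work with the members were counted at their ends in the same way, from 5 lists with 55 genes. A gene-end peak was present at 23 of 55 in Naive (41.8%, beside 19.3% of all protein-coding genes) and at 6 of 55 in EpiLC (10.9%, beside 5.61%). The median fold of the highest such peak was 4.82 in Naive and 3.66 in EpiLC, beside 4.58 and 3.34 over all genes with one. Of 11 genes of the NuRD complex, which Sall4 recruits, the Naive list marked 7 and the EpiLC list 2. The subunit gene Mta2 had 5.28 (3.59 to 7.51) in Naive and 3.95 in EpiLC, and Gatad2b, which encodes another subunit, 4.19 and 3.38. Of 15 genes of Oct4 and Sox2 partners, the lists marked 5 and 2, with Arid1a, a subunit of the BAF remodelling complex, in both (7.58, 5.40 to 10.4, and 4.09, 3.10 to 5.31).

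For 10 genes that act with Trim28 in silencing the counts were 5 (Naive) and 1 (EpiLC). Cbx3, the gene of the heterochromatin protein HP1γ, was in both, at 5.79 and 3.15. The 9 Rif1 partner genes gave 3 and 1, with none in both lists. The 10 genes of the Lin28 and let-7 pathway gave 3 and 0. Lin28a itself had no gene-end peak. By the 50 kb rule its paralogue Lin28b had 0 Naive and 2 EpiLC peaks and Hmga2, a let-7 target, 1 and 1. There was no EpiLC peak at the other 8 genes of that list. Over all protein-coding genes 26.3% had an EpiLC peak within 50 kb, so such peaks were not more frequent in this list. Lin28b and Hmga2 were singled out after their values were seen.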

How the data were processed

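Pcbp1 ChIP-seq and input libraries were made from naive and EpiLC cultures of 1 line, with 1 library of each kind. Chromatin was sheared to about 500 bp, per the labels' protocols. Tools named in the submitters' processing notes are MACS2, Bowtie2, fastp and Picard, without version or role, and the build is mm10 (GRCm38). The caller's control is not stated there. The deposited lists give for each peak a fold (a ratio over the caller's background), a −log10 p-value and −log10 q-value, a score derived from the latter, and the summit offset. The lowest deposited −log10 q was 2.02 in both lists.

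Pileup and background were solved from the deposited fold, read as (pileup + 1) / (background + 1), and the deposited −log10 p, read as a Poisson tail. A whole pileup matched within 0.001 for 100% of peaks in each list. Read totals are unknown. The lowest background of a list was taken as genome-wide. Overlap meant at least 1 bp. The recovery, the overlaps and the gene-end rule were tested on simulated data. Genes came from RefSeq GRCm38.p6, and all 55 partner genes matched by current symbol. Strand was known from the promoter table for 6 of the 8 genes, but not for Sall4 and Rif1. The 8 genes, the lists and the tests were chosen with earlier results of these data known. All 8 genes are named with their peaks, and of the partner lists those marked at a gene end in both lists, at most 3 per list. Alternatives were other thresholds, windows and overlap rules, a shortened Naive list, and pileups in place of folds. Analyses used scipy 1.17.1, pandas 2.3.3, numpy 2.4.6 and matplotlib 3.10.9 under Python 3.11.15.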

Additional observations from a re-analysis of the deposited data

How the results depend on the processing

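Counts were recomputed with peaks at a −log10 q of at least 5, at a fold of at least 5 (3978 Naive and 434 EpiLC peaks), with the 3494 Naive peaks of lowest p, with windows of 10 and 100 kb, with stricter overlap and with other limits at gene ends. At a fold of at least 5, Naive peaks at the 8 genes fell from 28 to 11 and EpiLC peaks from 9 to 4, with 2 overlapping in each list. Gene-end peaks were then at 2 genes in Naive and 0 in EpiLC, and at 9 and 1 of the 55 partner genes. With the shortened Naive list, 10 Naive peaks were left, 3 of them overlapping an EpiLC peak, 3 EpiLC peaks overlapped a Naive peak, and 2 of the 8 genes and 7 of the partner genes had a Naive gene-end peak, beside 4 and 6 in EpiLC. With overlap of at least 50% of both peaks, 3 peaks of each list were shared. Within 500 bp of a gene end, 3 genes were left in Naive, 2 in EpiLC and 3 partner genes in EpiLC. Within 3000 bp, 6 of the 8 genes had a peak in Naive and 6 in EpiLC. At a −log10 q of at least 5, EpiLC had 2 of the 8 genes. With transcript starts only, which the table gives for 6 of the 8 genes, Naive had 3 and EpiLC 4. Sall4 and Rif1, with a gene-end peak in Naive alone, were the genes without a given start. Utf1 left the Naive count because its Naive peak lay by the 3′ end.

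With the pileup over the genome-wide background in place of the fold, the highest EpiLC peaks came to 13.5 at Sall4, 12.6 at Sox2, 5.92 at L1td1, 9.42 at Lin28a, 14.3 at Utf1 and 6.73 at Pou5f1, and the highest Naive peak of Pou5f1 to 15.2, each outside its counting interval. The ratio at the Sox2 peaks turned from above 1 to 0.773 upstream and 0.810 downstream. Of 66 recomputed values, 35 stayed within 1.5 times the reported count or ratio or within the counting interval of the reported fold. The partner lists and the ratios were recomputed by alternatives chosen after seeing the data. No paired analysis was possible because each state had 1 library and no result comes from a test. Coverage and local background differed between the lists, which limits what can be said of a peak missing from 1 list.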

Other observations

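Beyond the 50 kb window, the flank of Sox2 held a group of Naive peaks with no EpiLC peak among them. They were chosen after their values were seen. Between 50 and 150 kb after the gene, the Naive list had 5 peaks and the EpiLC list 0. Over the whole Naive list 13.7% of peaks overlapped an EpiLC peak, so peaks in Naive alone were the usual case. The highest had its summit 106.9 kb after the Sox2 start (chromosome 3, 34756247 to 34757109; fold 15.0, 11.8 to 18.8; pileup 74), and 0.412% of Naive peaks were higher. A second, at 108.0 kb (34757562 to 34758433), had 14.0 (11.0 to 17.4). Those at 95.5 kb and 111.3 kb had 11.2 and 9.08, and a weak one at 110.2 kb had 3.51. Sox2 is known to be driven in embryonic stem cells by an enhancer cluster far downstream of the gene, whose coordinates are not in the tables used here. These peaks exceeded the 8.37 of the highest Naive peak within the window at 4 of 5 places.

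Lin28a, with 0 Naive peaks within 50 kb, had 8 Naive peaks and 0 EpiLC peaks between 50 and 150 kb on both sides together. In the same zone Trim28 had 6 and 1, L1td1 4 and 0, Sall4 3 and 0, Rif1 1 and 1, Utf1 1 and 0 and Pou5f1 0 and 0. The Pou5f1 peaks were thus all within 50 kb of it over this range. Shares over all protein-coding genes were not computed for this zone. None of its counts, those of the Sox2 flank included, is therefore shown to be particular to a gene.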
